A study of Homo sapiens with 4 samples.

Results

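The gene expression of the cisplatin-resistant cell line HN4/DDP was compared with that of its parental line HN4, with 1 array for each. HN4 is an established human line of head and neck squamous cell carcinoma (HNSCC), and HN4/DDP was derived from it by raising the cisplatin dose in steps. HN4/DDP, labelled HN4_CR, was kept in 20 μM cisplatin, for 48 hours by the sample labels, and no drug is named for HN4. Both were grown in DMEM with fetal bovine serum. The resistant line is a single derived line, and no array measured it without the drug, so that acquired resistance and current exposure to cisplatin cannot be told apart. The series holds 4 arrays in all, the others being the second HNSCC line HN30 and its resistant derivative HN30/DDP, which are used here only for values side by side.

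All probes other than the array's controls were taken, and each gene name was represented by its probe of highest mean signal. This gave a value on both arrays for 43305 of 43317 gene names, of which 18227 carry a RefSeq messenger RNA accession (NM_) and are called mRNA genes below. A level is the log2 signal of a spot minus the 75th percentile of its array, so that 0 is the 75th percentile and a difference of 1 is a doubling. Levels of different genes are not compared, since each probe binds with its own strength. With 1 array a side no difference has a replicate or a test, and the precision is limited by that number. The ± beside a difference is an SD computed from the scanner's error estimates for the spots of both arrays, and it leaves out the variation between cultures. A gene is called higher or lower in HN4/DDP when its difference passed 2 (4-fold) in that direction and its spot was well above background on the brighter array.

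Cisplatin binds DNA and forms crosslinks that block replication, and cells answer with damage signalling through p53, with DNA repair, or with apoptosis. Cells can also lower the damage by exporting or binding the drug and by raising the NRF2 programme, in which the transcription factor NRF2 drives genes of glutathione, NADPH and carbonyl metabolism through antioxidant response elements. HNSCC arises from stratified squamous epithelium, whose basal cells express KRT5 and KRT14 and whose upper layers switch to other keratins, small proline-rich proteins and kallikrein proteases as they cornify.

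The 75th percentile of the signal was 494 on the HN4 array and 496 on the HN4/DDP array, and 57.3% and 58.9% of genes were well above background. Copies of a probe on 1 array had a median SD of 0.03 on each. All 16 squamous carcinoma cell markers examined, among them TP63, EPCAM and DSG3, were well above background on both arrays. Of the markers of other cell types, 4 of 10 fibroblast, 3 of 9 endothelial, 6 of 10 leukocyte and 4 of 10 neural and neuroendocrine genes were well above background on both. Among the markers not well above background on either array, picked here for that, were COL1A2, COL3A1, DCN and LUM (fibroblasts) and KDR and TEK (endothelium). CD3E and MS4A1 (lymphocytes) and CHGA (neuroendocrine cells) were dim likewise. FAP and ITGAM, of the fibroblast and leukocyte lists, were well above background on both arrays. In these lists ESAM was higher and PECAM1 and FAP lower in HN4/DDP, with no leukocyte or neural marker past 2. VWF, dim on HN4, was higher on 1 probe and differed by -0.04 on the other, and the part of other cells in the results was not tested. In RNA from whole cultures, fewer cells of a type and less RNA per cell cannot be told apart. Across all genes the median difference was -0.21, and across the 13627 mRNA genes well above background on both arrays it was -0.06.

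In HN4/DDP 2.24% of all gene names were higher and 1.36% lower than in HN4. Among mRNA genes, 564 were higher (3.09%) and 330 lower (1.81%). At a difference of 1 these shares were 7.86% and 6.68%. Among the 8762 transcripts named lnc-, 1.06% were higher and 0.936% lower, and 2846 were well above background on both arrays. Of the higher mRNA genes 282 were well above background on both arrays and 282 were dim on HN4; of the lower ones 222 were bright on both and 108 were dim on HN4/DDP. For a dim gene the size of the difference is a lower bound, written as at least N-fold and taken against the dimmest spot of the array that was well above background. More than 1 probe well above background on either array was present for 92 of the higher and 84 of the lower mRNA genes, and all such probes had the same direction in 81 and 80 of them. With the normexp background correction the counts over all gene names fell from 970 and 590 to 262 and 175.

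**Figure D1:**
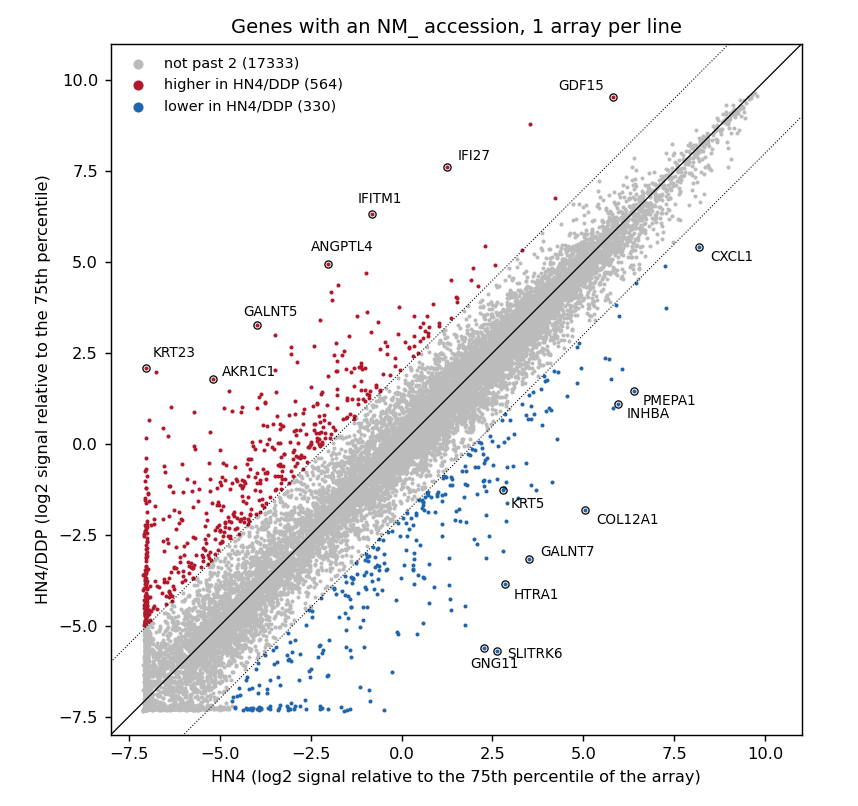
Level of each mRNA gene on the HN4/DDP array (vertical) against the HN4 array (horizontal), as log2 signal relative to the 75th percentile of the array; 1 dot is 1 gene. The solid line marks equal levels and the dotted lines a difference of 2. Red dots are the 564 higher genes and blue dots the 330 lower ones. GALNT5, ANGPTL4, IFITM1 and IFI27 lie far above the upper line, COL12A1, HTRA1 and GALNT7 far below the lower one, and the dots at the left and lower edges are genes not well above background on 1 or both arrays.

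The largest difference among genes bright on both arrays was that of GALNT5, an enzyme that starts O-linked glycosylation (probe at chr2:158157498-158162306 of hg19). Its level was -3.96 in HN4 and 3.28 in HN4/DDP, a difference of 7.25 ± 0.27 or 152-fold. GALNT7, another member of the same family, went from 3.51 to -3.18, a difference of -6.69 ± 0.22. The family thus held 1 of the largest rises and 1 of the largest falls. Of the 20 GALNT genes on the array, a list added after these values were seen, 3 were higher and 1 was lower, against 3.09% and 1.81% of mRNA genes, with GALNT18 higher by 2.89 and GALNT16 dim on HN4 and higher by at least 1.75-fold. GALNT3, GALNT6 and GALNT14, named here after their values were seen, differed by -0.29, -0.58 and -0.14.

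Enzymes that reduce carbonyls were among the genes with the largest differences in HN4/DDP. Of 31 NRF2 targets 7 were higher and none was lower, and 13 passed 1, where 3.09% of mRNA genes were higher and 7.86% passed 1, with a median of 0.55 against -0.10 over all mRNA genes. Of the 15 aldo-keto reductases on the array 6 were higher, while the family's median was -0.24, with 8 members below 0. The higher ones were AKR1B10, AKR1B15 and members of the AKR1C cluster, enzymes that reduce aldehydes, ketones and steroids. AKR1C3 had a level of -1.75 in HN4 and 4.38 in HN4/DDP, a difference of 6.13 ± 0.21. AKR1C1 was not well above background in HN4 (-5.18) and reached 1.77 in HN4/DDP, at least 92.8-fold. Its second probe differed by 5.50. AKR1C4 and the pseudogene AKR1C8P, dim on HN4, were higher by at least 9.33-fold and at least 25.2-fold. AKR1C1 and AKR1C4 each have 1 further probe that was not well above background on either array, and the means over all their probes differed by 4.59 and 2.63. These sequences, and those of AKR1B10 and AKR1B15, are near-identical, so that a probe may also read its neighbours, and the values are uncertain for single members. The aldose reductase AKR1B1 was not higher (6.53 in HN4 and 4.94 in HN4/DDP, -1.58), and AKR1A1 differed by 1.197.

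Other NRF2 targets differed less evenly. GPX2, a glutathione peroxidase, went from -3.81 to -0.68 (3.13 ± 0.26), and HMOX1, which breaks down haem, from 0.09 to 2.81 (2.72 ± 0.20). CYP4F11, a fatty acid hydroxylase, was higher by 2.499. TXNRD1, thioredoxin reductase, did not pass 2 and differed by 1.44. Classical targets named here after their values were seen hardly differed: NQO1 had 0.30 in HN4 and 0.47 in HN4/DDP, and GCLM, a subunit of glutamate-cysteine ligase, 4.09 and 3.82. The probe used for the NRF2 gene itself (NFE2L2) was not well above background on either array. A low message and a weak probe cannot be told apart there. The NRF2 inhibitor KEAP1 differed by -0.19. None of the 10 NRF2 regulators passed 2. ABCC2, an export pump for glutathione conjugates, went from -3.49 to 2.98 (6.47 ± 0.24), but a second probe of the gene differed by only 0.85. The retinol dehydrogenase DHRS9 was not well above background in HN4 (-6.75) and reached 1.97 in HN4/DDP, at least 106-fold.

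The promoters of 2 NRF2 targets that passed 1, GPX2 and TXNRD1, are shown because they carry the core of the antioxidant response element, TGACNNNGC read on either strand, which the capitals mark. GPX2 is on the minus strand of chromosome 14 (chr14:64942696-64942895) and TXNRD1 on the plus strand of chromosome 12 (chr12:104215629-104215828), both from RefSeq on GRCh38.p14 and shown from 150 bases before to 50 after the start of the transcript.

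GPX2: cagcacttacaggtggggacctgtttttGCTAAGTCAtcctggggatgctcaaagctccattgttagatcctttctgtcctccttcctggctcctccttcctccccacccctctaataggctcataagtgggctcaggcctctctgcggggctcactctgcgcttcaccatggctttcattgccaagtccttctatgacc

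TXNRD1: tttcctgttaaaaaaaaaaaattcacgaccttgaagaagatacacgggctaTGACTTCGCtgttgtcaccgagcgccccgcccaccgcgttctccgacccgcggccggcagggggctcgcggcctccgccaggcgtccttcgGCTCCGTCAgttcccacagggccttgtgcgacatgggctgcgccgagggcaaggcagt

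In windows of 250 bases before to 50 after the start, 8 of the 21 NRF2 targets with a promoter entry held this core (38.1%), against 13.6% of all 27305 promoters. Of these 8 genes, GPX2 and CYP4F11 were higher and 4 passed 1. Of the 13 without a match, 3 were higher (ABCC2, AKR1C1 and AKR1C3) and 5 passed 1. GCLM has a match and differed by -0.27, so that genes with the motif in this window were found on both sides of 0.

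Of 25 p53 targets 6 were higher in HN4/DDP and 17 passed 1, against 3.09% and 7.86% of mRNA genes, and only PMAIP1, which encodes the apoptosis inducer NOXA, passed -1. GDF15, a secreted stress cytokine, went from 5.81 to 9.54 (3.72 ± 0.20). GADD45A, a growth arrest gene, went from 2.30 to 5.45 (3.15 ± 0.20). PLK3 was higher by 2.88, BTG2 by 2.74 and ZMAT3 by 2.35. PMAIP1 differed by -1.30. MDM2, the ubiquitin ligase that limits p53, had nearly equal levels, 4.10 in HN4 and 4.11 in HN4/DDP; it was looked up after the values were seen. DDIT3 and CHAC1, genes of the integrated stress response, were higher by 2.26 and 2.32, the only 2 of the 28 genes of the ATF4 and unfolded protein response list that were.

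Interferon-stimulated genes encode antiviral and signalling proteins and are driven by interferon signalling at the interferon-stimulated response element. All 41 examined were well above background on both arrays, and 6 were higher in HN4/DDP, against 3.09% of mRNA genes, with none lower. IFITM1, a membrane protein that blocks viral entry, went from -0.82 to 6.32, a difference of 7.14 ± 0.20, and its second probe differed by 7.13. IFI27, a mitochondrial protein, went from 1.24 to 7.61 (6.37 ± 0.20). Next were IFI44L (3.29), IFI6 (2.83), the transcription factor IRF7 (2.36) and OAS1 (2.13). The group did not move as a block. IFIT1 had 3.14 in HN4 and 3.58 in HN4/DDP, IFIT3 had 1.83 and 1.48, and RSAD2 had 2.33 and 1.37; these were named after their values were seen. The median of the list was 0.50, and 16 genes passed 1 with none past -1, against 7.86% and 6.68% of mRNA genes.

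Promoter windows of the 2 genes with the largest differences, IFITM1 and IFI27, are shown beside those of IFIT1 and RSAD2, whose levels differed by 0.44 and -0.96 and which were picked for that contrast after the values were seen. All are on the plus strand of GRCh38.p14 and run from 150 bases before to 50 after the start, with the core GAAANNGAA on either strand in capitals. The windows are chr11:313890-314089 for IFITM1, chr14:94110586-94110785 for IFI27, chr10:89392473-89392672 for IFIT1 and chr2:6865735-6865934 for RSAD2.

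IFITM1: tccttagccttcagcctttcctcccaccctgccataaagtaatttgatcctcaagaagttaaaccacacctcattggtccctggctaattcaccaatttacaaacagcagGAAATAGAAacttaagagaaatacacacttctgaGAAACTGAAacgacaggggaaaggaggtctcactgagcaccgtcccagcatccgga

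IFI27: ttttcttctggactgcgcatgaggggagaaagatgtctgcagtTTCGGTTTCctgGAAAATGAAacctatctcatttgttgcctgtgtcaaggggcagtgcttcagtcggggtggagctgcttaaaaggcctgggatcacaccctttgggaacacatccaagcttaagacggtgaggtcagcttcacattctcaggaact

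IFIT1: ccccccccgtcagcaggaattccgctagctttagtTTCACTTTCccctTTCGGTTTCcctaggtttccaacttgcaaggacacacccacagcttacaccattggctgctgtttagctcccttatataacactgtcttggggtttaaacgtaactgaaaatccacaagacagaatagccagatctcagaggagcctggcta

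RSAD2: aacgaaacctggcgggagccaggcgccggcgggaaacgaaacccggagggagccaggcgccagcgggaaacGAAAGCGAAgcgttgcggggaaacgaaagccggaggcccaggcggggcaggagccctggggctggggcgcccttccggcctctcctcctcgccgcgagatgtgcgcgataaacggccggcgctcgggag

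The core was present in each of the 4, with a pair of matches in IFITM1, IFI27 and IFIT1. Over the whole windows it was found in 22 of the 32 interferon-stimulated genes with a promoter entry (68.8%), against 8.29% of all promoters. Among the 22, 4 were higher, 8 passed 1 and the median difference was 0.15. Among the 10 without a match, 1 was higher (OAS1), 2 passed 1 and the median was 0.40.

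**Figure D2:**
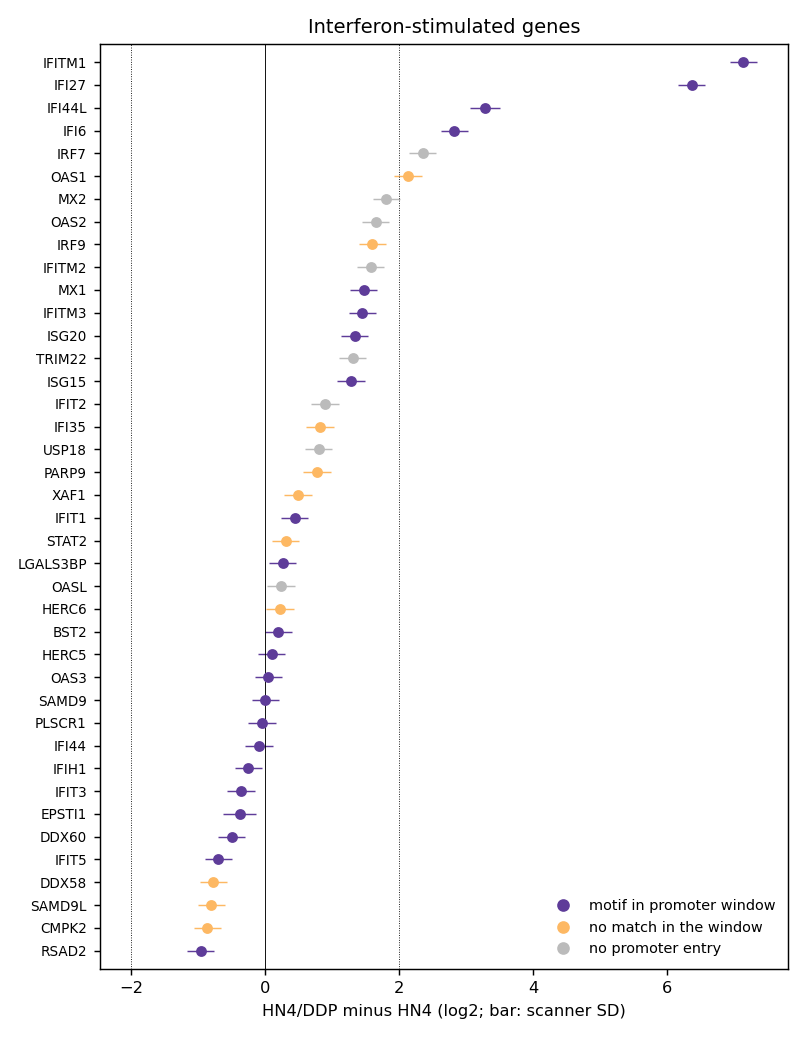
Difference of 40 interferon-stimulated genes (HN4/DDP minus HN4, log2; bar, scanner SD), coloured by whether GAAANNGAA occurs in the promoter window. IFITM1 and IFI27 lie apart at 7.14 and 6.37, the other genes run from 3.29 down to -0.96, and genes with the motif occur along the whole range.

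Immediate early and AP-1 genes, which cells switch on within minutes of growth factors or stress, were higher in 7 of 28 cases, against 3.09% of mRNA genes, with none lower (median 0.81). BATF2, an AP-1 family factor that also answers interferon, went from -3.49 to 2.02 (5.52 ± 0.24). EGR4 was higher by 4.15, FOS by 2.84, FOSB by 2.79, EGR1 by 2.11 and JUN by 2.08. HBEGF, a ligand of EGFR, was higher by 3.12, and the ERK phosphatase DUSP5 by 2.37. Among signalling and immune genes of other lists, the interleukin-1 antagonist IL1RN had a difference of 4.31 on 1 probe and 1.199 on the other, and the chemokine CCL3 was higher by 3.29.

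Squamous keratins differed in both directions in HN4/DDP. KRT5, the keratin of basal cells, went from 2.79 to -1.26 (-4.05 ± 0.21), while its usual partner KRT14 went from -2.68 to -0.35 (2.33 ± 0.22). The keratins of wounded or stressed epithelium were higher in 4 of 5 cases, against 3.09% of mRNA genes: KRT16 by 5.25, KRT6A by 3.32, KRT17 by 3.29 and KRT6C, dim on HN4, by at least 2.73-fold. KRT6B differed by -0.35. KRT16 has 1 further probe that was not well above background on either array, and the mean over its probes differed by 2.99. KRT13, a keratin of upper layers of mucosa, went from -1.76 to 2.29 (4.05 ± 0.21). KRT23 was not well above background in HN4 (-7.04) and at 2.09 in HN4/DDP, at least 116-fold, and its second probe differed by 4.20. The keratins of simple epithelia KRT8 and KRT18, looked up after the values were seen, differed by -0.30 and -0.14. KRT6A and KRT6C, like KRT16 and KRT17, are close relatives, and their probes may read each other.

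Genes of cornification were higher in 8 of 43 cases, against 3.09% of mRNA genes, and lower in none, although the sign of the list's median (0.25) depends on the processing. SPRR2A, a crosslinked envelope protein, went from -1.95 to 4.19 (6.13 ± 0.21), and SPRR2E and SPRR2F were higher by 5.88 and 5.70; the SPRR2 genes are near-identical and cannot be told apart with certainty. SPRR1B was higher by 4.87. LCE1B, dim on HN4, was higher by at least 26.0-fold and SPRR3 by at least 18.0-fold. The kallikreins, proteases that shed the upper layers, were higher in 5 of the 16 genes of their list, against the same 3.09%: KLK5 by at least 74.7-fold, KLK7 by at least 34.2-fold, KLK8 by 4.57, KLK6 by 3.11 and KLK10 by at least 1.08-fold. SPINK5, the inhibitor of KLK5 and KLK7, was the 1 lower gene of that list, from -1.37 to -3.83.

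Of 20 squamous lineage factors 2 were higher and none was lower, and 1 passed -1, where 3.09% of mRNA genes were higher, 1.81% lower and 6.68% past -1. GRHL3, a transcription factor of epidermal barrier formation, went from -3.03 to 2.46 (5.49 ± 0.22), and ZNF750, a factor of late differentiation, from -2.15 to 0.81 (2.95 ± 0.21). TP63, the master factor of stratified epithelium, named after its value was seen, differed by -0.82. S100A9 was higher by 2.53, S100P by 2.61 and S100A7 by 2.32. Of 35 serpins 5 were higher, against the same 3.09%, led by SERPINA3 (3.91 ± 0.20), and SERPINB9, an inhibitor of granzyme B, was lower by at least 14.3-fold. COL17A1, a collagen that anchors basal keratinocytes through hemidesmosomes, went from -2.25 to 3.41 (5.67 ± 0.21). The desmosomal cadherin DSC3 was lower (-0.81 to -3.77), as was the connexin GJA1 (-1.19 to -4.10).

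Among markers of epithelial to mesenchymal transition the directions were mixed. SNAI1 went from -1.01 to 2.09 (3.10) and VIM from -3.35 to -0.60 (2.75), while SNAI2 went from -0.84 to -3.59 (-2.75). CDH1 and FN1, looked up after the values were seen, differed by 0.58 and -0.19. Over 30 mesenchymal genes 5 were higher and 3 lower, against 3.09% and 1.81% of mRNA genes.

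**Figure D3:**
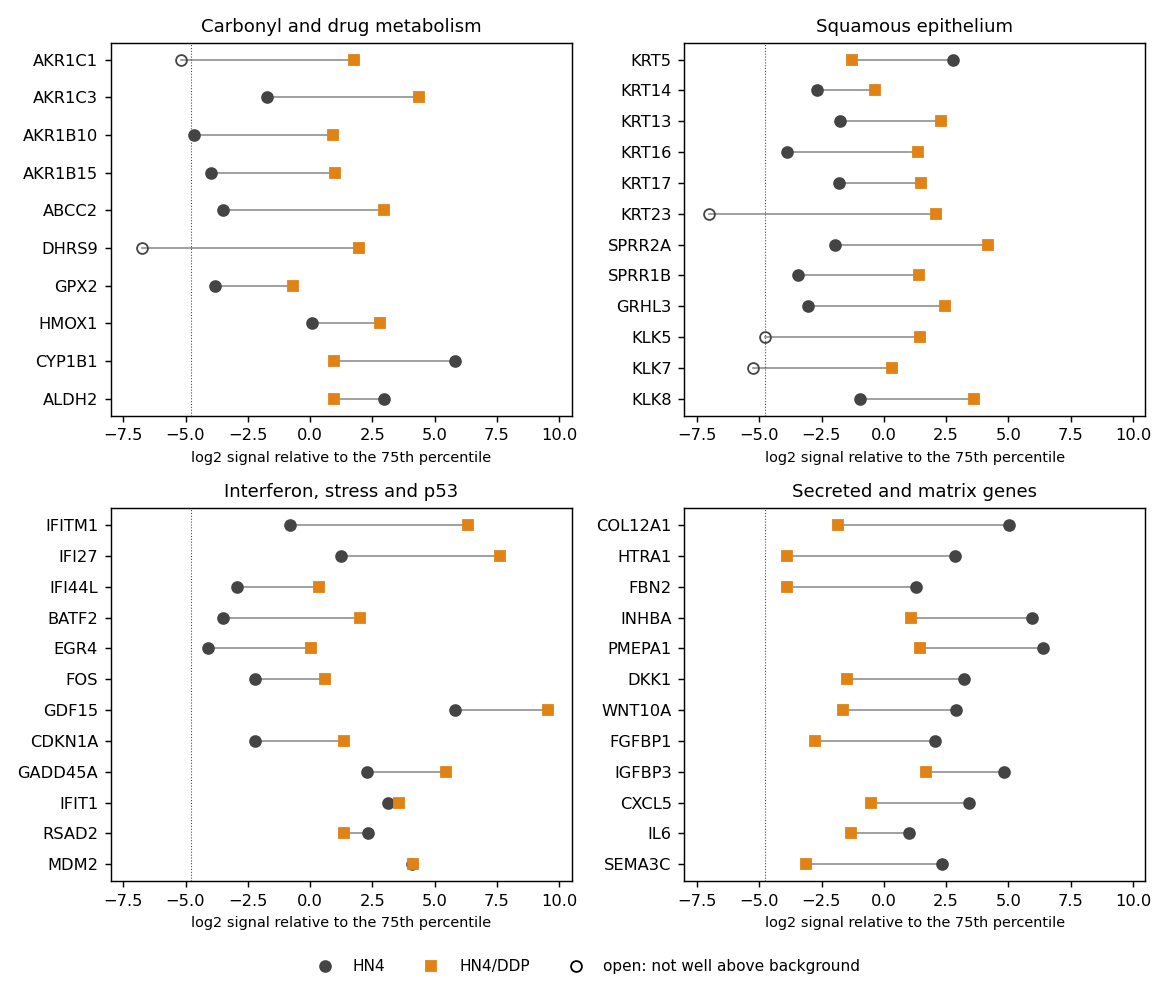
Level of genes of 4 functional groups in HN4 (grey circles) and HN4/DDP (orange squares), as log2 signal relative to the 75th percentile of the array, with 1 panel per group; open circles were not well above background, and the dotted line is the lowest signal well above background on the HN4 array. The genes of every panel were picked, so the panels do not stand for whole families. Most of the carbonyl-reducing enzymes and keratinocyte genes shown lie to the right in HN4/DDP. Those of the last panel, chosen from genes that were lower, lie to the left. KRT5, CYP1B1 and ALDH2 run against the rest of their panels. Of all 15 aldo-keto reductases on the array, 8 lay below 0.

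Among matrix genes 2 of 44 collagens were higher and 3 lower, 1 of 12 laminins was higher, 4 of 42 ADAM and ADAMTS proteases were higher and 1 lower, and none of 27 matrix metalloproteinases and TIMPs passed 2. With 3.09% of mRNA genes higher and 1.81% lower, these counts of a few genes are given as a description. COL12A1, a collagen of fibril surfaces, went from 5.04 to -1.82, at -6.86 ± 0.21 the largest fall among genes bright on both arrays (its second probe, -5.78). HTRA1, a secreted protease that acts on TGF-beta signalling, went from 2.84 to -3.87 (-6.71 ± 0.24). FBN2, a microfibril protein, fell by 5.19 and the guidance factor SEMA3C dropped by 5.45. Of 31 secreted factors linked to senescence 9 were lower and 1, GDF15, was higher. INHBA, the subunit of activin A, went from 5.94 to 1.097 (-4.85 ± 0.20). CXCL5 was at -3.93, CXCL1 at -2.75, IGFBP3 at -3.12 and IL6 at -2.32. For IL6 1 further probe was not well above background on either array, and the mean over its probes differed by -1.33. CXCL6 was dim on HN4/DDP and lower by at least 10.9-fold. IL7R, a cytokine receptor, had a difference of -4.96.

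In the TGF-beta and BMP family of 58 genes 6 were lower, against 1.81% of mRNA genes, and 2 higher, near the 3.09% of mRNA genes, the latter being GDF15 and GDF1. GDF1 shares its transcript with CERS1, so that their at least 24.6-fold and at least 55.0-fold rises may be 1 signal. SMAD6, an inhibitor of BMP signals, went from 0.34 to -2.99 (-3.33 ± 0.22), and TGFB2 was lower by at least 7.91-fold. PMEPA1, a target and feedback inhibitor of TGF-beta, went from 6.39 to 1.47 (-4.93 ± 0.20). None of the 55 WNT genes was higher and 4 were lower: the antagonist DKK1, the ligands WNT10A (2.89 to -1.63) and WNT5A (-2.79), and RSPO4. In the IGF axis IGFBP3, the receptor IGF1R (2.23 to -0.29) and its adaptor IRS1 (-0.95 to -3.10) were lower, 3 of 17. FGFBP1, a carrier that releases FGFs, went from 2.06 to -2.75, and FGF2 from 1.67 to -0.74. The NOTCH genes LFNG and MFNG, glycosyltransferases of the receptor, were at -3.58 and -2.28, with a second LFNG probe at -0.69, and the ligand DLL3 was lower by at least 17.4-fold, while the target HES1 was higher by 2.32. Of 14 Hippo targets, AJUBA and AXL were lower (-2.32 and -2.22) and none was higher.

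**Figure D4:**
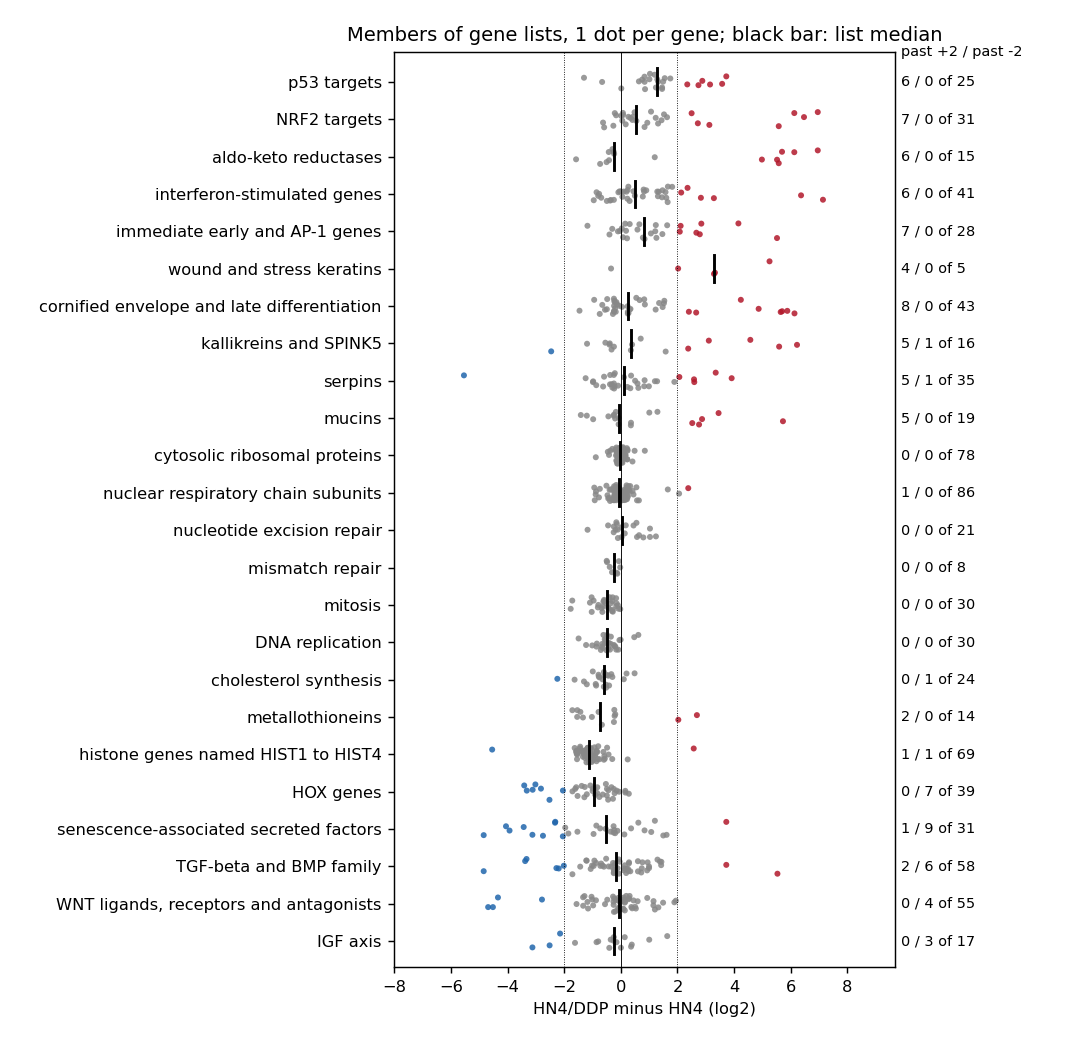
Difference of every member of 24 gene lists (HN4/DDP minus HN4, log2; 1 dot per gene; black bar, list median; dotted lines, 2 and -2); red dots are higher and blue dots lower genes, with the counts at the right. p53 targets have the highest median of the larger lists (1.29), HOX and histone genes the lowest (-0.94 and -1.13), and the ribosomal and respiratory genes lie close to 0.

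HOX genes, which encode positional identity, had a median of -0.94. None of 39 was higher and 7 were lower, against 1.81% of mRNA genes, and 15 passed -1. HOXD10 went from 2.41 to -1.01 (-3.41 ± 0.21), HOXD9 was at -3.12 with a second probe at -0.96, and HOXD11 at -2.82. HOXA13 went from -0.44 to -3.46. HOXC4 and HOXC12 were at -2.52 and -2.05. NR2F1, an orphan nuclear receptor, went from 1.32 to -4.26 (-5.58 ± 0.27), and its antisense neighbour NR2F1-AS1, named after its value was seen, from 1.54 to -2.15. FOXF2 was dim on HN4/DDP and lower by at least 46.5-fold. The forkhead factor FOXA2 ran the other way (-3.29 to 0.50).

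Replication-dependent histone genes, whose messages accumulate in S phase, differed little each but nearly all in 1 direction. Of the 69 named HIST1 to HIST4, a list added after values were seen, 48 passed -1 against 6.68% of mRNA genes, but only HIST1H1A passed -2 (lower by at least 15.6-fold), and 1, HIST2H2BA, dim on HN4, was higher, by at least 1.21-fold; the median was -1.13. Many are near-identical and their probes are not independent. The mitosis and DNA replication lists had medians of -0.49 and -0.48 with no gene past 2 in either direction, and ANLN, needed for cytokinesis, reached -1.77 and the helicase subunit MCM4 -1.49. CDKN1C, an inhibitor of cyclin-dependent kinases, was higher by 2.71. Genes of cholesterol synthesis had a median of -0.60.

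Several pathways are usually set beside the response to cisplatin. None of the 21 nucleotide excision repair, 24 Fanconi anemia and homologous recombination, 8 mismatch repair or 10 translesion polymerase genes passed 2 in either direction. With 3.09% of mRNA genes higher and 1.81% lower, lists of this size would hold few called genes. DDB2, a damage sensor and p53 target, differed by 1.24, ERCC1, a nuclease subunit looked up after its value was seen, by 1.03, and FANCD2 by -1.74. In the list of 15 platinum and copper transport genes only ABCC2 was higher, against 3.09% of mRNA genes, and its second probe differed by 0.85. In that list 3 genes passed 1 and 3 passed -1, against 7.86% and 6.68% of mRNA genes. The copper exporter ATP7B differed by 1.40 and the importer SLC31A1 by 0.21, both named after their values were seen. Metallothioneins, which bind platinum, had a median of -0.73, and 6 of 14 passed -1, against 6.68% of mRNA genes. MT1X, MT1E and MT2A, named after their values were seen, were at -1.71, -1.54 and -0.67, the last of them not past -1, and the 2 higher members, MT1G and MT4, were dim on HN4. None of the 18 genes of the BCL2 family passed 2, while 5 passed 1 and 2 passed -1, against 7.86% and 6.68% of mRNA genes, with BBC3, which encodes PUMA, at 1.46.

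Broad cellular machinery stayed near 0: the medians of cytosolic ribosomal proteins, mitochondrial ribosomal proteins and nuclear respiratory chain subunits were -0.02, -0.02 and -0.06, with 1 respiratory chain gene, COX7B2, past 2. Of the genes of the study's title, CREB5 was dim on HN4 and at -0.39 in HN4/DDP. TOP1MT, the mitochondrial topoisomerase I (probe at chr8:144391575-144391634 of hg19), had 4.64 and 4.41, a difference of -0.23 ± 0.20, and in HN30/DDP against HN30 it differed by 0.33. The cAMP response element TGACGTCA was present in 1.98% of all promoters and in 1 of the 19 CREB and ATF factors with an entry. These are promoters of the factors themselves and not of their targets. The study's motif in the TOP1MT promoter was the shorter TGACG. CREB5 was the 1 higher gene of the 21 in that list, against 3.09% of mRNA genes. CREB1, looked up after its value was seen, differed by -0.90.

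Enzymes of metabolism and drug handling other than the carbonyl reductases were divided. Of 54 cytochromes P450, 6 were higher and 6 lower, against 3.09% and 1.81% of mRNA genes. CYP1B1, which oxidises oestrogens and aromatic hydrocarbons, went from 5.80 to 0.98 (-4.83 ± 0.20; second probe, -4.67), and CYP4X1 was lower by at least 26.7-fold. CYP3A7 was higher by 3.22 and CYP4F3 by at least 11.7-fold. ALDH2, named after its value was seen, just missed the threshold at -1.98. ANGPTL4, a secreted inhibitor of lipoprotein lipase induced by hypoxia and fatty acids, went from -2.01 to 4.96 (6.97 ± 0.21), while VEGFA, another hypoxia target, went from 3.92 to 1.87. ABCA1 and ABCG1, cholesterol exporters, were higher by at least 24.2-fold and by 3.32. CRABP2, which carries retinoic acid, had 1 probe at 4.75 and another at 0.08. PTGS1, a prostaglandin synthase, was higher by 3.70, and QPRT, an enzyme of NAD synthesis, by at least 11.3-fold.

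Further large differences belonged to no family that moved. LMO2, a transcriptional bridging protein of blood and vessel cells, went from -3.04 to 2.65, and the scavenger receptor MARCO from -4.39 to 1.01. PTN, a heparin-binding growth factor, and MERTK, a receptor for dying cells, were dim on HN4 and higher, by at least 50.02-fold in the case of PTN and 30.6-fold in that of MERTK. MAGED1 went from 1.74 to -4.46, the tetraspanin TSPAN5 from 1.36 to -4.57 and the troponin TNNI2 from 2.80 to -2.94. SLITRK6, dim on HN4/DDP, was lower by at least 195-fold (its second probe, -2.66), and GNG11, a G-protein subunit, by at least 154-fold. PRSS23, a serine protease dim on HN4/DDP, had a difference of -6.74 on 1 probe and 0.01 on its other, so that its call depends on the probe. BLMH, bleomycin hydrolase, went from 2.88 to -2.13. Of 85 cadherins and protocadherins 4 were higher and 5 lower, against 3.09% and 1.81% of mRNA genes, with CDH18 and CDH19 at -4.94 and -5.13 and CDH12 higher by 2.72.

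Several of these genes are neighbours. Counting runs of at least 3 adjacent mRNA genes called in the same direction, there were 6 runs of higher genes, with 21 genes, and 2 of lower ones, with 6. The higher runs were the SPRR2 genes on chromosome 1, AKR1C1, AKR1C3 and AKR1C4 on chromosome 10, KRT14, KRT16 and KRT17 on chromosome 17 and KLK5, KLK6, KLK7 and KLK8 on chromosome 19, which are gene families, and 2 runs of unlike genes. The first of these was EPHX2, CLU and SCARA3 on chromosome 8 (27402115 to 27530442 of hg19): CLU, the chaperone clusterin, went from -3.93 to 1.30 (5.23), SCARA3 was higher by 3.79 and EPHX2 by at least 6.52-fold. The lower runs were HOXD11, HOXD10 and HOXD9 within 15.3 kb, and CPVL, CHN2 and PRR15 on chromosome 7, with CHN2 dim on HN4/DDP and its 3 probes between -5.03 and -0.89. Genes of these runs outside the lists were named after their values were seen.

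The other run of unlike genes lies in the imprinted region at the tip of chromosome 11, where KCNQ1 (3.46), CDKN1C (2.71), SLC22A18AS (2.49) and SLC22A18 (2.02) were higher over 76.3 kb (2870117 to 2946394 of hg19). KCNQ1 has 1 further probe that was not well above background on either array, and the mean over its probes differed by 1.62. H19, a noncoding RNA of the neighbouring imprinted domain (probe at 2016674 to 2016733), ran the other way, from 4.30 to -1.86 (-6.17 ± 0.21; second probe, -5.80). MRPL23-AS1 beside it was dim on HN4/DDP and lower by at least 9.60-fold. H19 had no such difference in HN30/DDP against HN30 (0.19). All were named after their values were seen.

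Broader stretches were examined as windows of 40 adjacent mRNA genes bright on both arrays, by their median difference. The typical chromosome had its lowest window at -0.39 and its highest at 0.18 (medians over the chromosomes). The lowest of all, -1.16, was the histone cluster of chromosome 6 (26124461 to 27792235). On chromosome 7 the window from LFNG to UMAD1 (2567971 to 7918778) had a median of -1.01, with 39 of 40 genes below 0, and the same genes had a median of -0.06 in HN30/DDP against HN30. On chromosome 13 the window from MICU2 to PDS5B (22066998 to 33351584) stood at -0.92 with 38 genes below 0, and on chromosome 2 that from TIGD1 to ANKMY1 (233412949 to 241418904) at -0.91 with 37. The highest was 0.68, on chromosome 11 from TRIM34 to ADM (5655079 to 10328839). Most genes of these windows passed neither 2 nor -2; in the chromosome 7 window 2 passed -2.

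**Figure D5:**
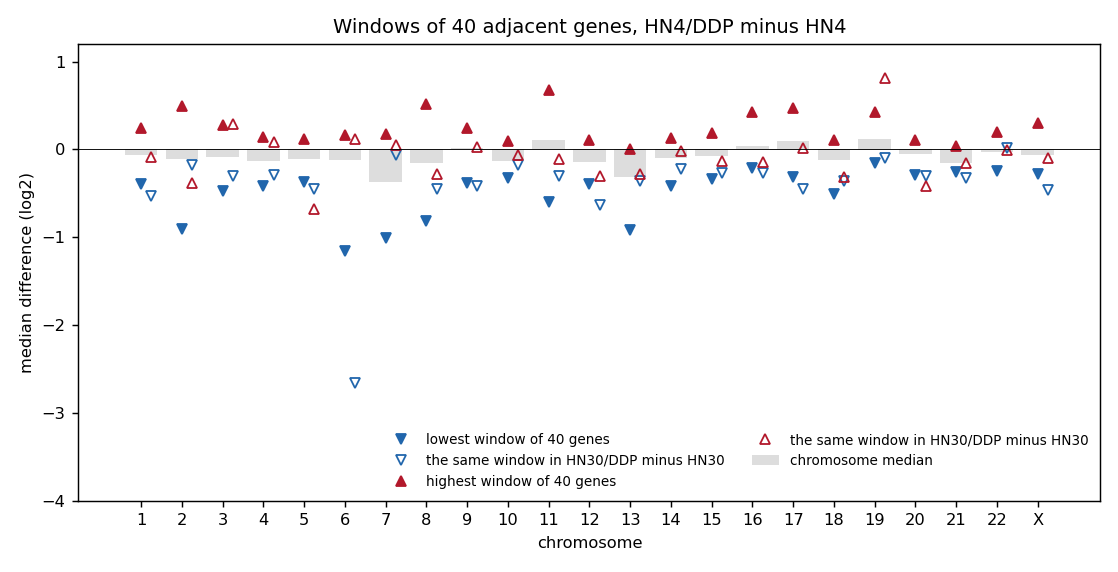
Median difference (log2) of the lowest and the highest window of 40 adjacent mRNA genes on each chromosome (filled triangles, HN4/DDP minus HN4; open triangles, the same window in HN30/DDP minus HN30; grey bars, chromosome median). The lowest windows of chromosomes 2, 6, 7 and 13 lie at -0.91, -1.16, -1.01 and -0.92, and of these only that of chromosome 6 was lower still in the HN30 pair (-2.66).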

How the data were processed

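The arrays were 1-colour Agilent SurePrint G3 Human Gene Expression v3 arrays, run by a company for the study. The scanner output was deposited by the authors; in it, Agilent Feature Extraction 10.7.1.1 (per the submitters' processing notes) had subtracted background from each spot's intensity, removed trends across the array, set very low signals to a small positive value and marked spots well above background. Probe coordinates are on hg19. The authors' own log2 table, whose columns share 1 distribution as after quantile normalization, served as an alternative; its earlier steps are not given in the sources used here.

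Levels are the log2 of the processed intensity relative to the 75th percentile of the array's non-control probes, without outlier spots and with copies of a probe averaged. Of several probes, that with the highest mean on the 4 arrays was used. The choice of probe, the background correction and the handling of dim spots can all change a difference, most for dim genes. Both arrays shared slide and scan; separate cultures are not stated.

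Named genes carry an NM_ accession and were the 15 largest rises and 15 largest falls bright on both arrays, the 12 largest bounded rises dim on HN4, the 8 largest bounded falls dim on HN4/DDP, up to 6 members past 2 of each gene list (or, with none past 2, up to 2 past 1), and CREB5 and TOP1MT. RefSeq's table on GRCh38.p14, used for names and promoters only, held the accessions of 289 of these 293 genes, 7 under another symbol, and not those of the other 4. The members, the 111 lists and the rule were chosen with earlier results of these data known; the lists of HIST1 to HIST4 and GALNT genes were added after values were seen. Single values of some genes are not reported here. Lists are described by counts and medians, without a set test.

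Alternatives were normexp (limma 3.58.1, R 4.3.3, offset 50), other scalings, other treatments of dim signals and probes, and other thresholds, all given in the closing section. The procedures were tested on simulated data. Python 3.11.15 with numpy 2.4.6, pandas 2.3.3 and statsmodels 0.14.6 was used.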

Additional observations from a re-analysis of the deposited data

Results flagged for a closer look

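Genes named by the rule were marked when they passed 2 in HN4/DDP against HN4 in 1 direction and in HN30/DDP against HN30 in the opposite one. The difference between the cell lines was not tested, since each value rests on 1 array per condition; the pairs share no array. There were 14 such genes that are reported here.

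Of these, 7 were higher in HN4/DDP but lower in HN30/DDP. All 7 belong to the keratin, small proline-rich, S100 or serpin families of squamous epithelium. The rule takes named genes from lists of these families, so the selection favours them. Over all mRNA genes 11 moved in this way, and the others are not described here. SPRR2A was at 6.13 in the HN4 pair and -2.90 in the HN30 pair. KRT6A was at 3.32 and -8.44. SPRR1B was at 4.87 and -2.17. SERPINB7, a keratinocyte serpin, was at 2.59 and -4.06, and the squamous antigen SERPINB3 at 2.07 and -3.25. S100A7, psoriasin, was at 2.32 and -2.85, and KRT6C at 2.02 and -5.96. KRT6C and SERPINB7 were dim on HN4, and taken against the dimmest spot well above background there they were higher by at least 2.73-fold and at least 5.18-fold, which leaves KRT6C short of the 4-fold threshold.

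The other 7 were lower in HN4/DDP and higher in HN30/DDP. CHN2, a Rac GTPase-activating protein, was at -5.03 and 4.02, and SLC25A27, a mitochondrial carrier, at -5.81 and 2.67. CYP27A1, sterol 27-hydroxylase, was at -3.24 and 2.43, and ABCB4, a phospholipid transporter, at -3.12 and 3.82. WNT5A was at -2.79 and 2.73, COL8A2 at -2.38 and 2.60, and the cancer-testis gene GAGE2B at -2.34 and 2.51. CHN2, SLC25A27 and ABCB4 were dim on HN4/DDP, and by the same kind of bound they were lower by at least 28.9-fold, 11.2-fold and 1.80-fold, which leaves ABCB4 short of the threshold. In the HN4 pair the 3 probes of CHN2 lay between -5.03 and -0.89, and the 2 of COL8A2 between -2.38 and -1.09. The marks of both genes thus depend on the probe. Over all mRNA genes 11 moved as the first kind and 31 as the second, while 205 were higher in both and 19 lower in both.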

How the results depend on the processing

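With 1 array a line, leaving out a replicate was not possible. No paired analysis was possible because both lines have a single array, numbered 1. Of the counts of higher and lower genes, 970 and 590, those under median centring, quantile normalization, the lowess trend, the authors' log2 values, the mean of probes, another choice of probe and outlier spots kept stayed within 1.5 times. They were 262 and 175 with the normexp correction, 388 and 290 with genes well above background on both arrays only, 599 and 387 with dim signals raised to the lowest signal well above background, 494 and 307 with a pseudocount of 16, 2500 and 2322 at a threshold of 1, and 564 and 330 for NM_ accessions only. Fewer genes could be counted in the second and the last of these, and more pass a threshold of 1 by definition. The pseudocount and the raised dim signals shrink differences of dim genes by construction. For normexp the cause was not tested. The share of higher genes among the calls lay between 57.2% and 67.1% over the alternatives in which it was computed, against 62.2%. These scalings moved the median of all genes by up to 0.21.

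Of 259 named genes past 2, 257 had the same direction in every alternative. The exceptions were PRSS23, at 0.0128 with the probe of highest mean on the 2 arrays compared, and SOX1, at -0.12 with dim signals raised. Sizes were less stable than directions. Of all 293 named genes, 226 moved by more than the scanner's error with normexp and 166 with a pseudocount of 16, all of them nearer to 0, as did 73 with dim signals raised. Of the 259, 151 still passed 2 with normexp, 199 with the pseudocount, 222 with dim signals raised and at least 242 with each other alternative that kept all of them. With normexp AKR1B10 went from 5.58 to 3.55 and ABCC2 from 6.47 to 5.22. The 15 list medians of 0.5 or more in size kept their sign. The medians of smaller size that changed sign include those of cornified envelope, kallikrein, aldo-keto reductase and mesenchymal genes. Differences of genes dim on 1 array are limited by signal over background.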

Other observations

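Of 19 mucins 5 were higher, against 3.09% of mRNA genes: MUC20 by 2.76, MUC15, dim on HN4, by at least 4.46-fold, MUC16 by at least 2.595-fold, MUC19 by at least 15.8-fold on 1 of its 3 probes well above background on either array, of which the lowest lay at -1.43, and MUC21, named after its value was seen, by at least 2.27-fold. Of 71 cancer-testis antigens 4 were higher and 3 lower, against 3.09% and 1.81% of mRNA genes, with SPANXA1 at 3.57 and SPANXC at 3.39, whose sequences are near-identical, and MAGEB2 at -2.89. Of the 7 APOBEC3 cytidine deaminases APOBEC3H was higher by 2.91 and APOBEC3A, dim on HN4, by at least 5.59-fold. Among Eph receptors and ephrins EFNB1 went from 1.36 to 4.50, while EFNB3 (-2.18) and EPHA4 (-2.26) were lower. SEMA3B was higher by 3.85, against the fall of SEMA3C. The laminin LAMA1 went from -4.04 to -0.14. Of 519 genes named ZNF, 8 were higher (1.54%, against 3.09% of all mRNA genes) and none lower, with a median of 0.17 against -0.10. By chromosome, 4.14% of the mRNA genes of chromosome 19 were higher and 0.613% lower.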
